A study of Mus musculus with 8 samples.

Results

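The nuclear genes of the mitochondrial respiratory chain were measured in single mouse hematopoietic stem cells (HSCs). Members were chosen by name: every gene in the table whose symbol began with Nduf, Uqcr, Sdh or Atp5, or was Cox followed by a number, together with Cycs and Cyc1. The rule found 101 of the 10720 genes. They comprised 35 genes of complex I, 4 of complex II, 9 of complex III, 13 of complex IV and 15 of complex V, the cytochrome c gene Cycs, and 24 assembly factors and other genes that share the prefixes. Ndufa4 was counted with complex IV and Cyc1 with complex III, where their products belong. The genes carried by mitochondrial DNA, which encode further subunits of complexes I, III, IV and V, were not analysed here.

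The respiratory chain sits in the inner mitochondrial membrane. Complex I takes electrons from NADH and complex II takes them from succinate, complex III passes them to cytochrome c, and complex IV hands them to oxygen. Complexes I, III and IV pump protons across the membrane, and complex V, the ATP synthase, uses the returning protons to make ATP. Quiescent HSCs are known to rely largely on glycolysis and to raise mitochondrial respiration when they enter the cell cycle and differentiate.

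HSCs of adult C57BL/6 mice, sorted from bone marrow as Lin- Sca1+ cKit+ (LSK) cells with the surface pattern CD150+ CD34- CD48-, were picked by hand and sequenced with unique molecular identifiers (UMIs), which count each captured messenger RNA molecule once. WT cells came from Mx1-cre- Med23 L/L control mice and KO cells from Mx1-cre+ Med23 L/L mice, given the genotype Med23-/-, in which poly(I:C) injection induces Cre and deletes Med23, a subunit of the transcriptional Mediator complex. Both groups therefore carry the floxed allele. For its blood counts the study examined WT and KO mice alike after poly(I:C). Whether the control mice of the sequenced cells were injected too was not stated. The Mx1 promoter responds to interferon and is not restricted to HSCs, and the age at sorting and the time after injection were not given for these cells. The labels list 8 libraries, titled as batches 1 to 4 of each genotype, without saying what a batch is or whether each is a separate animal. The table names each cell only by genotype and number. Differences between batches could not be told apart from those between genotypes. The libraries could thus not be told apart, each genotype was 1 pool of cells, and neither a p-value nor a replicate error could be given.

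Of 304 cells labelled WT and 282 labelled KO, 259 and 234 held at least 2000 detected genes and 20000 UMIs and were kept. The kept cells held 21475782 UMIs for the WT label and 16180546 for the KO label, with medians of 59649 and 50281 UMIs per cell. Levels are given as CPM, the UMIs of a gene per 1000000 UMIs of its pool over the genes of the table. Since each UMI is 1 molecule counted at its 3' end, CPM can be compared between genes without a correction for length. Ratios are log2 of CPM in the pool labelled KO over that in the pool labelled WT, with a 95% interval that covers counting error only.

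Med23 itself had no lower level in KO cells: the pool labelled WT held 122 of its UMIs (5.68 CPM) and the pool labelled KO 117 (7.23 CPM), a log2 ratio of 0.35 (interval -0.03 to 0.73). The reads come from 3' ends, and a 3' end outside the deleted part would not test the deletion. All 12 HSC marker genes examined were in the table. In the pool labelled KO 7 of them were lower, 6 past 1.2-fold, and 5 were higher, 3 past 1.2-fold. Among the genes behind the sort, Kit measured 156.8 and 114.8 CPM, Ly6a, which encodes Sca1, 272.9 and 189.3 CPM, and Slamf1, which encodes CD150 and had the lowest ratio of the 12, 39.0 and 8.16 CPM. The highest ratio was that of the transcription factor Mecom, at 32.9 and 72.3 CPM. Oocyte genes, foreign to this sort, exceeded 1000 CPM in 66 kept WT-labelled cells and 2 KO-labelled ones, and the sums of the complexes and the ratios of the named members were also computed without these 68 cells. Of the other markers, the table held 4 of 7 erythroid genes at 1498 and 1167 CPM in sum, in the order WT and KO. Most of this was the carbonic anhydrase Car2 (1467 and 1096 CPM), and its relative Car1 measured 0.140 and 61.1 CPM. The table further held 2 of 7 neutrophil genes (23.6 and 11.4 CPM), 2 of 7 macrophage genes (32.0 and 59.1 CPM), 1 of 7 lymphocyte genes (55.4 and 86.3 CPM) and 6 of 8 genes of stroma and endothelium (81.8 and 102.3 CPM). Although the sum of the last list was higher in the pool labelled KO, 4 of its 6 genes were lower and 2 higher. They ranged from Col1a1 (log2 ratio -6.02) to Pecam1 (1.45). The part of such cells in the results was not tested.

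The chain accounted for 3.47% of the UMIs of the pool labelled WT and for 3.23% of those of the pool labelled KO. Its summed level was 34743 CPM in the former and 32277 CPM in the latter, a log2 ratio of -0.11 (interval -0.11 to -0.10), or 7.10% lower. The 5 complexes and cytochrome c were all lower in the pool labelled KO, and they stayed lower under each of the 8 alternative settings. In the pooled CPM complex III stood lowest, with a log2 ratio of -0.25, followed by complex V at -0.15, complex II at -0.14, complex I at -0.09, Cycs at -0.08 and complex IV at -0.03. This order depended on the setting: complex III was the lowest of the 5 complexes in 8 of 9 settings, complex II in 1, and Cycs was lower than every complex in 3. Complex IV was the least low of the 5 complexes in all 9. Median-of-ratios scaling, 1 of the 9, shifts every pooled log2 ratio by the same -0.028. It could therefore not change the order.

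Among the 101 genes, 72 (71.3%) were lower and 29 higher in the pool labelled KO, where 48.1% of all 10720 genes were lower. The median log2 ratio of the members was -0.09, and that of all genes was 0.02. Past 1.2-fold, 24 members (23.8%) were lower, against 28.9% of all genes, and 6 (5.94%) were higher, against 33.1% of all genes. The share lower past 1.2-fold was thus close to that of all genes, and the share higher was smaller. Most members are abundant, and scarce genes scatter more between pools. Restricted to genes with a mean of at least 10 UMIs per kept cell, a limit chosen after the data were seen, 17 of 76 members (22.4%) were lower past 1.2-fold against 19.5% of the 1342 genes of that abundance, and 2 (2.63%) were higher against 19.6%. Of these 76 members 58 (76.3%) were lower by any amount, against 54.2%. In the mean of the deposited normalized values the median of all genes itself moved to -0.14, where 93 members were lower and 58 were lower past 1.2-fold. Relative to the median of all genes, the members stood at -0.12 in the pooled CPM and at -0.18 in the normalized values. Because of this shift of all genes, single members in the normalized values are given below relative to that median.

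**Figure D1:**
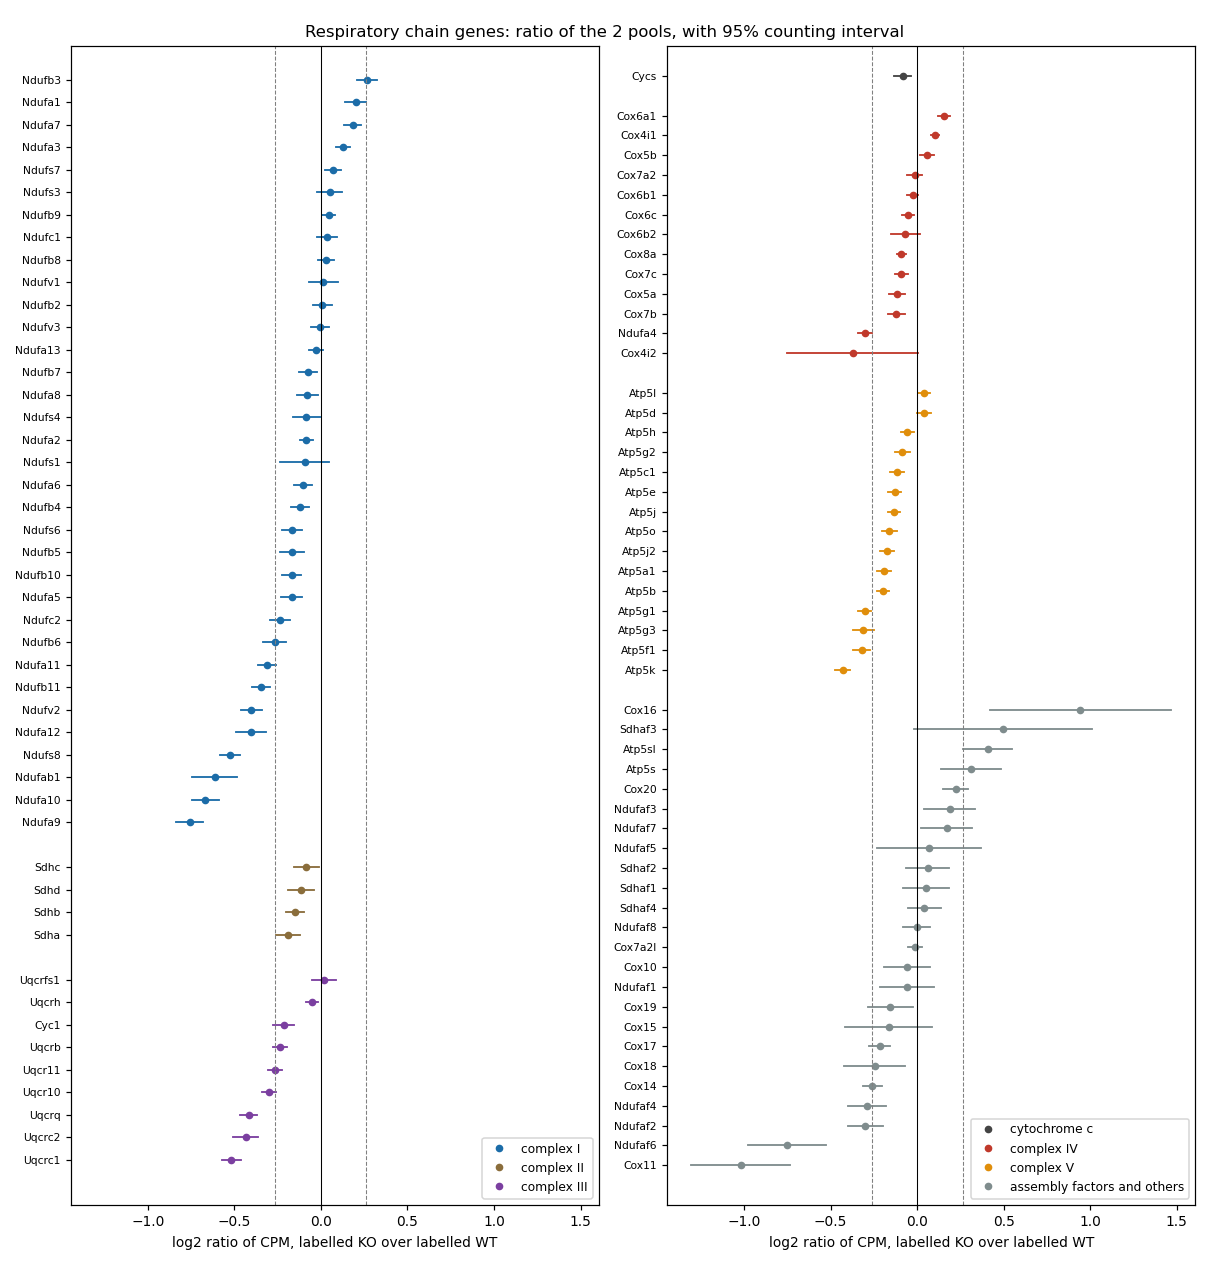
Log2 ratio of CPM, pool labelled KO over pool labelled WT, for the genes of the chain by complex, 1 of which is not shown. Points are pooled values, bars are 95% counting intervals without replicate error, and dashed lines mark 1.2-fold. In complexes II, III and V most points lie left of 0, and in the assembly factors they scatter on both sides.

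A direction that did not depend on the setting was rarer. Over 9 settings, the pooled CPM and its 8 alternatives, 52 members (51.5%) were lower in all, against 30.9% of all genes, 6 (5.94%) were higher in all, against 30.3%, and 43 took both signs. Relative to the median of all genes in each setting, 57 members (56.4%) were lower in all, against 32.0% of all genes, and 10 (9.9%) were higher, against 32.3%. On that scale median-of-ratios scaling gives the same values as the pooled CPM and adds nothing to these counts. A difference past 1.2-fold in all 9 settings was less frequent among the members than among all genes, at 8.91% against 15.1% for lower and 1.98% against 15.8% for higher. The 9 members lower past 1.2-fold were Ndufa9, Ndufa10, Ndufa12, Ndufab1 and Ndufv2 of complex I, Uqcrc1 and Uqcrc2 of complex III, and the assembly factors Ndufaf6 and Cox11. The 2 higher past 1.2-fold were Atp5sl and Cox16. Relative to the median of all genes, Atp5g1 of complex V joined the former and Atp5sl left the latter. Ndufa12, Ndufv2, Uqcrc1, Uqcrc2 and Cox16 are named here because of this count, after their values were seen.

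Complex I, the NADH dehydrogenase, is the largest complex of the chain. Its 35 genes summed to 10062 CPM in the pool labelled WT and 9452 CPM in the pool labelled KO (log2 ratio -0.09, interval -0.10 to -0.08). The members were spread over both directions, with 23 lower (65.7%, against 48.1% of all genes) and 12 higher. Past 1.2-fold 9 were lower (25.7%, against 28.9% of all genes) and 2 higher (5.71%, against 33.1%). The 7 core subunits, which carry the flavin and the iron-sulfur clusters, summed to 1549 and 1427 CPM (log2 ratio -0.12), and the 28 supernumerary subunits, which surround this core, to 8513 and 8025 CPM (-0.09). The median of the core subunits was 0.01, and over the alternatives it lay between -0.35 and 0.01.

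Ndufa9, a supernumerary subunit beside the ubiquinone-binding site, measured 199.7 CPM in the pool labelled WT and 118.0 CPM in the pool labelled KO, the lowest ratio in the complex (log2 ratio -0.76, interval -0.84 to -0.68). When each cell was thinned to 20000 UMIs this value was -0.37. Ndufa10, a subunit of the membrane arm, measured 198.9 and 125.3 CPM (log2 ratio -0.67, interval -0.74 to -0.59). In the mean over cells of the CPM, where each cell counts equally, it stood at -0.37. Ndufab1, an acyl carrier protein that is a subunit of complex I and also serves mitochondrial fatty acid synthesis, measured 69.0 and 45.1 CPM (log2 ratio -0.61, interval -0.74 to -0.48). Of the WT-labelled UMIs of Ndufab1, 33.0% came from the 66 cells rich in oocyte transcripts, and leaving these out gave a log2 ratio of -0.46.

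In the opposite direction, Ndufb3, a supernumerary subunit of the membrane arm, measured 222.3 CPM in the pool labelled WT and 267.4 CPM in the pool labelled KO (log2 ratio 0.27, interval 0.21 to 0.33). It stayed above 0 under every alternative, and relative to the median of all genes it stood at 0.24 in the pooled CPM and at 0.23 in the normalized values. The most abundant genes of the complex differed little. Ndufa2 measured 624.8 and 588.9 CPM (-0.09), Ndufb9 558.7 and 576.3 CPM (0.04) and Ndufa3 483.1 and 527.9 CPM (0.13), and the ratio of Ndufb9 turned to -0.10 without its richest cell and was -0.01 once cells with oocyte transcripts were left out. Relative to the median of all genes, Ndufa3 stood at 0.10 in both the pooled CPM and the normalized values.

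Complex II, the succinate dehydrogenase, is the only complex that is also an enzyme of the tricarboxylic acid cycle, and the only one encoded wholly in the nucleus. All of its 4 subunits were slightly lower in the pool labelled KO, where 48.1% of all genes were lower, with none past 1.2-fold. Sdha, the flavoprotein that oxidizes succinate, measured 191.1 and 167.4 CPM (log2 ratio -0.19, interval -0.26 to -0.12). Sdhb, the iron-sulfur subunit and the most abundant of the 4, measured 372.5 and 335.8 CPM (-0.15, interval -0.20 to -0.10). The membrane anchors Sdhc and Sdhd measured 176.0 and 166.1 CPM (-0.08) and 152.0 and 140.4 CPM (-0.11). The sum of the complex, 892 and 810 CPM, had a log2 ratio of -0.14, and without the cells with oocyte transcripts it was -0.24. Those 66 cells labelled WT had a median of 597 CPM of complex II, against 785 CPM in the other 193.

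Complex III, the cytochrome bc1 complex, differed most of the complexes in the pooled CPM and in 7 of its 8 alternatives. Among these 7 was median-of-ratios scaling, which could not change the order. The exception was the setting without the cells with oocyte transcripts, with -0.23 for complex III and -0.24 for complex II. Of its 9 genes 8 (88.9%) were lower in the pool labelled KO in all 9 settings, against 30.9% of all genes. Its sum was 3889 CPM in the pool labelled WT and 3274 CPM in the pool labelled KO (log2 ratio -0.25, interval -0.26 to -0.23), or 15.8% lower. The gene that did not follow was the Rieske iron-sulfur protein Uqcrfs1, at 188.0 and 190.2 CPM. Past 1.2-fold 5 were lower (55.6%, against 28.9% of all genes). These were Uqcrc1 (354.7 and 247.9 CPM, log2 ratio -0.52) and Uqcrc2 (203.5 and 150.7 CPM, -0.43), the core proteins on the matrix side, and the small subunits Uqcrq (427.8 and 320.5 CPM, -0.42), Uqcr10 (595.4 and 482.9 CPM, -0.30) and Uqcr11 (548.2 and 456.4 CPM, -0.26). Over the 9 settings the ratios of Uqcrq, Uqcr10 and Uqcr11 reached up to -0.16, -0.25 and -0.15, short of 1.2-fold. Of the Uqcrq UMIs in the pool labelled WT 37.9% came from cells with oocyte transcripts. Uqcrc1, Uqcrc2, Uqcrq, Uqcr11 and Uqcrfs1 are given beyond the naming rule, after their values were seen. Uqcrh, the hinge protein and the most abundant gene of the complex, measured 754.2 and 729.0 CPM, a log2 ratio of only -0.05. Uqcrb measured 547.8 and 465.1 CPM (-0.24). Cyc1, the heme-bearing cytochrome c1 that passes electrons on, measured 269.1 and 231.8 CPM (-0.22, interval -0.28 to -0.16).

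Cycs, the mobile electron carrier between complexes III and IV and a trigger of apoptosis once released, measured 374.6 CPM in the pool labelled WT and 353.6 CPM in the pool labelled KO (log2 ratio -0.08, interval -0.13 to -0.03). A single cell labelled KO held 890 UMIs of Cycs, 6.46% of all, and without it the ratio was -0.29. Without the cells with oocyte transcripts the ratio was -0.01, so the size of the difference rested on which cells were counted. In the mean over cells of the normalized values Cycs stood at -0.42 relative to the median of all genes.

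Complex IV, cytochrome c oxidase, differed least of the complexes, with sums of 8459 and 8314 CPM (log2 ratio -0.03, interval -0.04 to -0.01). Of its 13 genes 10 (76.9%) were lower by any amount, against 48.1% of all genes, and 3 were higher. Only Ndufa4 (643.5 and 522.7 CPM, -0.30) and Cox4i2 were lower past 1.2-fold, 15.4% of its genes against 28.9% of all genes. Ndufa4, once assigned to complex I and now known as a complex IV subunit, is named after its value was seen. Cox4i1, the regulatory subunit found in most tissues, was the most abundant gene of the chain, at 1526 and 1636 CPM (log2 ratio 0.10, interval 0.08 to 0.12), and relative to the median of all genes at 0.08 in the pooled CPM and 0.0035 in the normalized values. Its paralogue Cox4i2, the lung isoform that responds to oxygen, was near the floor of the table, at 163 UMIs (7.59 CPM) and 95 UMIs (5.87 CPM), with a log2 ratio of -0.37 and an interval of -0.75 to 0.00. Of the Cox4i2 UMIs in the pool labelled WT 54.0% came from cells with oocyte transcripts, and the ratio reversed to 0.33 once those cells were left out.

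Of the other subunits with tissue isoforms, the liver-type or general forms were abundant. Cox6a1 measured 696.1 and 776.2 CPM (log2 ratio 0.16, and relative to the median of all genes 0.13 in the pooled CPM and 0.09 in the normalized values), Cox7a2 495.0 and 489.9 CPM (-0.01), and Cox8a, the second most abundant gene of the complex, 1206 and 1132 CPM (-0.09). The heart and muscle forms Cox6a2, Cox7a1 and Cox8b were not analysed here. Cox6b1, which joins the monomers of the complex into a dimer, measured 959.0 and 941.4 CPM (-0.03). Its testis isoform Cox6b2, named after its value was seen, was present too, at 129.9 and 123.9 CPM (-0.07, interval -0.15 to 0.02). Of the Cox6b2 UMIs in the pool labelled WT 45.0% came from cells with oocyte transcripts, and over the 9 settings its ratio reached up to 0.37. Cox7a2l, a Cox7a relative linked to supercomplexes of complexes III and IV, measured 547.8 and 543.6 CPM (-0.01). Cox7a2 and Cox7a2l differed by no more than counting error, and the direction of both turned under some settings.

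Complex V, the ATP synthase, was lower in nearly all of its parts. Of 15 genes 13 (86.7%) were lower in the pool labelled KO by any amount, against 48.1% of all genes. Past 1.2-fold 4 were lower, 26.7% of the genes and close to the 28.9% of all genes. The sum was 8858 and 7961 CPM (log2 ratio -0.15, interval -0.16 to -0.14). The 5 subunits of the catalytic F1 head, with Atp5b as the catalytic beta subunit at 832.6 and 726.1 CPM (-0.20), summed to 3184 and 2915 CPM (-0.13). The other 10 genes, of the membrane part and the stalks, summed to 5675 and 5045 CPM (-0.17), and all 4 genes past 1.2-fold were among them: Atp5k (564.1 and 418.6 CPM, -0.43), Atp5f1 (389.3 and 311.6 CPM, -0.32), Atp5g3 and Atp5g1. Atp5k and Atp5f1 are named after their values were seen. Atp5l, a small subunit of the membrane part, measured 788.1 and 810.4 CPM (0.04, and relative to the median of all genes 0.02 in the pooled CPM and -0.02 in the normalized values), and Atp5j, a subunit of the peripheral stalk, 753.8 and 686.0 CPM (-0.14).

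The proton-carrying ring of complex V is built of subunit c, whose mature protein is the same from each of 3 genes, Atp5g1, Atp5g2 and Atp5g3. Atp5g1 was the most abundant at 716.0 and 580.5 CPM (log2 ratio -0.30, interval -0.34 to -0.27), followed by Atp5g2 at 498.7 and 469.6 CPM (-0.09, interval -0.13 to -0.04) and Atp5g3 at 266.0 and 214.3 CPM (-0.31, interval -0.37 to -0.25). The order of the 3 genes was the same in both pools. How reads shared by near-identical copies were assigned was not given in the sources used here, so the split between these genes is uncertain.

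The 24 assembly factors and other genes with the same prefixes were scarcer and went both ways. Lower by any amount were 13 (54.2%, against 48.1% of all genes), and 11 were higher. Past 1.2-fold were 4 (16.7%) in each direction, against 28.9% of all genes for lower and 33.1% for higher. Their sum was 2209 and 2113 CPM (log2 ratio -0.06), and without the cells with oocyte transcripts its log2 ratio was 0.0013. Cox11, a copper chaperone for complex IV, had the lowest ratio of all members, with 381 UMIs (17.7 CPM) in the pool labelled WT and 142 UMIs (8.78 CPM) in the pool labelled KO (log2 ratio -1.02, interval -1.30 to -0.74). A single cell labelled WT held 60 of these UMIs, and the ratio was -0.79 without it and -0.28 in cells thinned to equal depth. Ndufaf6, an assembly factor of complex I, measured 25.1 and 14.9 CPM (log2 ratio -0.75, interval -0.98 to -0.53). Of its UMIs in the pool labelled WT 40.3% came from cells with oocyte transcripts, and leaving these out gave a ratio of -0.42.

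Higher in the pool labelled KO were Atp5sl, at 37.5 and 49.7 CPM (log2 ratio 0.41, interval 0.26 to 0.55), Atp5s, at 27.1 and 33.7 CPM (0.31, interval 0.14 to 0.48), and Cox20, at 161.3 and 188.1 CPM (0.22, interval 0.15 to 0.29). Despite its prefix Atp5sl is known as an assembly factor of complex I, and Cox20 is a chaperone for a mitochondrially encoded subunit of complex IV. Atp5sl stayed higher under every alternative. In the mean over cells of the CPM Atp5s was at 0.0059 and Cox20 at -0.04. In the normalized values, relative to the median of all genes, Atp5s stood at 0.10 and Cox20 at -0.03. Cox16, a further complex IV assembly factor too scarce for the naming rule, had 54 and 78 UMIs (log2 ratio 0.94, interval 0.42 to 1.47).

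At equal depth, single cells differed far more than the pools did. After each cell was thinned to 20000 UMIs, the chain held 406 to 1081 UMIs (median 633) among WT-labelled cells and 381 to 1142 (median 591) among KO-labelled cells. The distributions overlapped almost wholly. The coefficient of variation was 19.8% for the WT label and 17.7% for the KO label, where counting alone would give 3.90% and 4.05%. Complex I had medians of 179 and 177 UMIs per cell, complex III of 69 and 59.5, complex IV of 156 and 152, and complex V of 166 and 150. Complex II, with medians of 15 and 14 UMIs, varied by 60.8% and 54.0% between cells, where counting alone would give 24.8% and 26.2%. At equal depth the ratio of variance to mean had a median over the members of 5.75 for the WT label and 5.48 for the KO label. Atp5g1 had the highest ratio in each, at 12.9 and 9.74. The ratio over all genes is not given here, so these values are not set against other genes.

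**Figure D2:**
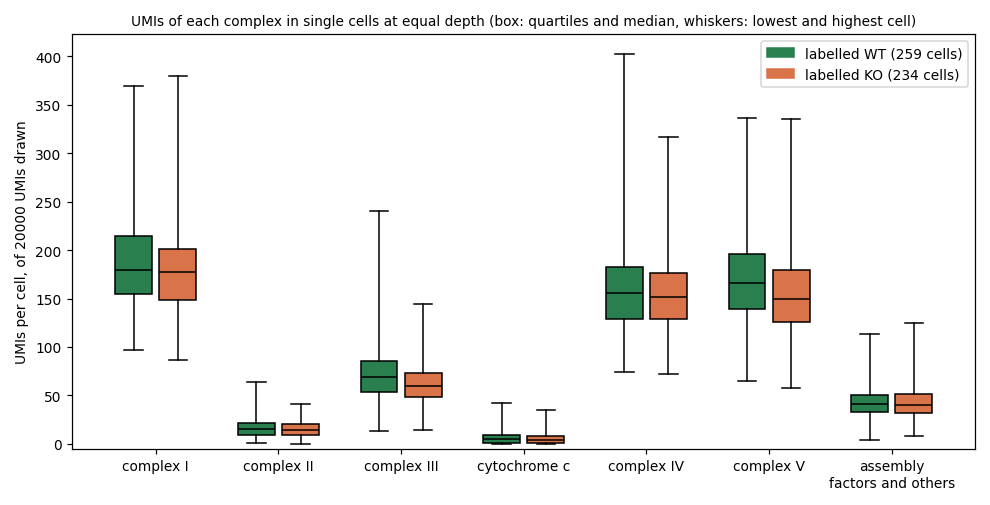
UMIs of each complex per cell, of 20000 UMIs drawn, in cells labelled WT (259) and KO (234). Boxes show the quartiles and median, and whiskers the lowest and highest cell; the boxes of the pools overlap for every complex, and the medians of complex III (69 and 59.5) and complex V (166 and 150) lie furthest apart.

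The level of the chain rose with UMIs per cell over all kept cells (Spearman's rho 0.36 for the WT label and 0.26 for the KO label), though not in each range of depth. The pools differed in depth, and the comparison was therefore repeated within ranges. The median level of the chain in cells labelled WT was 29531 CPM in 83 cells of 20000 to 40000 UMIs, 31368 CPM in 75 cells of 40000 to 80000 UMIs and 34589 CPM in 101 cells above. In cells labelled KO it was 29011, 28803 and 32500 CPM in 90, 84 and 60 cells. The log2 ratio of the medians was -0.03, -0.12 and -0.09 in the 3 ranges. Complex III was lower in each range, at -0.10, -0.15 and -0.29, and complex V likewise, at -0.09, -0.23 and -0.03. Without the cells with oocyte transcripts complex III stood at -0.11, -0.03 and -0.27 and complex V at -0.11, -0.22 and -0.0055. Complex II was lower in the shallowest and deepest cells (-0.20 and -0.11) and slightly higher in the middle range (0.02), and Cycs was higher in the shallowest cells (0.15) and lower in the others (-0.58 and -0.08). Without the cells with oocyte transcripts both were lower in all 3 ranges, complex II at -0.29, -0.06 and -0.17 and Cycs at -0.02, -0.50 and -0.04. Complex I was higher in the shallowest cells (0.06) and lower in the others (-0.07 and -0.08). Without the cells with oocyte transcripts it stood at 0.06, -0.04 and -0.07.

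**Figure D3:**
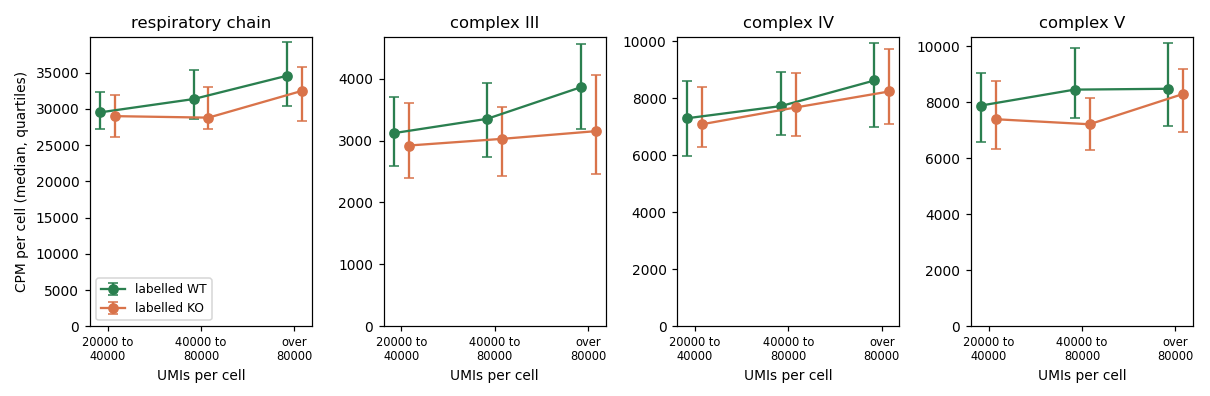
CPM per cell of the whole chain and of complexes III, IV and V in 3 ranges of UMIs per cell. Points are medians over cells, bars are quartiles; the median of cells labelled KO is below that of cells labelled WT in each range, and for complex IV by at most 0.07 on the log2 scale.

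Genes of S and G2M phase moved with the chain. Their 26 genes summed to 2501 CPM in the pool labelled WT and 1999 CPM in the pool labelled KO, and at equal depth the median cell held 20 and 13 of these UMIs. Of the 26 genes 21 (80.8%) were lower, against 48.1% of all genes. Across cells, the chain and the S and G2M genes had a Spearman's rho of 0.47 in the 259 cells labelled WT and 0.39 in the 234 labelled KO. These correlations are across cells that share libraries and differ in original depth, and are given as a description. Among the 114 cells labelled WT and 141 labelled KO with at most 16 UMIs of these genes, the median over all kept cells, the chain had medians of 588.5 and 576 UMIs (log2 ratio -0.03). Among the 145 and 93 cells above this value the medians were 676 and 641 UMIs (-0.08). Complex III was lower in both classes (-0.13 and -0.23), as was complex V (-0.07 and -0.16). Complex I was not, at 0.02 in the cells with few such UMIs and -0.07 in the others. The part of proliferating cells in the difference between the pools beyond these values was not tested.

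The complexes moved together across cells, apart from complex II. Among complexes I, III, IV and V, Spearman's rho ranged from 0.29 to 0.46 over the 6 pairs among WT-labelled cells and from 0.23 to 0.32 among KO-labelled ones. The 4 pairs with complex II ranged from 0.14 to 0.21 and from -0.00 to 0.16. Complex II has the fewest UMIs of the complexes and thus the largest counting error. At equal depth, counting alone would give it a coefficient of variation of 24.8% (label WT) and 26.2% (label KO). The measured values were 60.8% and 54.0%. Whether counting error lowers the correlations of complex II was not tested. With the mitochondrial ribosome, which translates the mitochondrially encoded subunits, the chain had a rho of 0.56 (label WT) and 0.38 (label KO), and with mitochondrial import 0.51 and 0.30. With glycolysis it had 0.22 and 0.12. It was negative with the cytosolic ribosome (-0.38 and -0.26), which took up 22.3% and 20.3% of all UMIs in the pools labelled WT and KO, and with the interferon response (-0.31 and -0.14). Whether the relations differ between the pools was not tested.

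**Figure D4:**
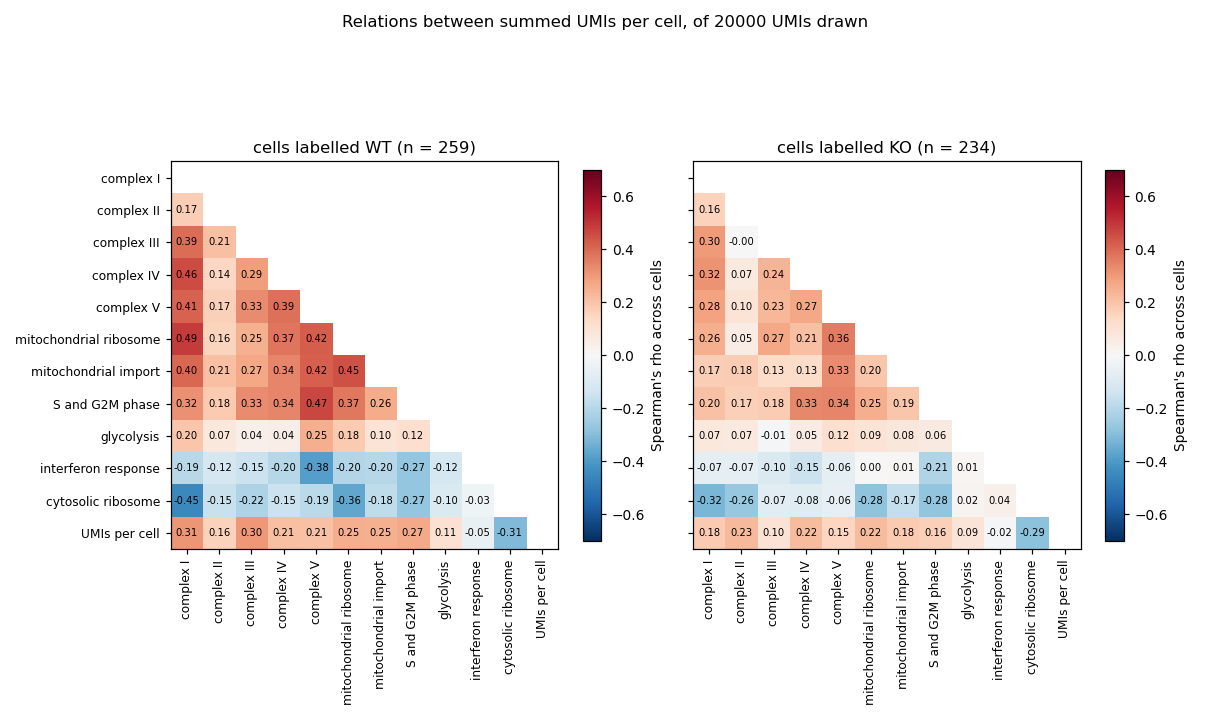
Spearman's rho across cells between summed UMIs at equal depth, for 5 complexes and 6 gene lists, and with the total UMIs per cell, in cells labelled WT (n = 259) and KO (n = 234). Complexes I, III, IV and V are positively related to one another in both panels, complex II less so, and the cytosolic ribosome is negatively related to complex I (-0.45 and -0.32).

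Other lists of mitochondrial genes were also lower in the pool labelled KO. The 78 genes of the mitochondrial ribosome summed to 9747 and 8878 CPM, with 59 lower and a median log2 ratio of -0.21, from Mrps22 (63.1 and 32.1 CPM, -0.97) to Mrpl33 (261.3 and 353.9 CPM, 0.44). Of 31 genes of protein import into mitochondria 25 were lower (median -0.17), from Pam16, a part of the import motor (161.7 and 97.3 CPM, -0.73), to the outer membrane receptor Tomm70a (56.1 and 68.7 CPM, 0.29). Of 18 genes of the tricarboxylic acid cycle and pyruvate dehydrogenase 13 were lower (median -0.14), from the fumarase Fh1 (110.7 and 75 CPM, -0.56) to Dlst, a part of the oxoglutarate dehydrogenase (41.4 and 52.2 CPM, 0.34). A further 42 genes of the chain and its assembly that the naming rule did not reach had a median of -0.20, with 30 lower. The named extremes there were Lyrm4, a partner of the iron-sulfur cluster enzyme (133.8 and 68.9 CPM, -0.96), and Coa4, a complex IV assembly factor (18.3 and 38.6 CPM, 1.08). Past 1.2-fold lower were 33 of 78 (42.3%), 14 of 31 (45.2%), 5 of 18 (27.8%) and 20 of 42 (47.6%) genes of these lists, against 28.9% of all genes. Past 1.2-fold higher were 5 (6.41%), 1 (3.23%), 4 (22.2%) and 6 (14.3%), against 33.1% of all genes. Lower by any amount were 75.6%, 80.6%, 72.2% and 71.4% of the genes of these lists, against 48.1% of all genes.

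The genes of glycolysis went both ways. Its 23 genes summed to 5847 and 5900 CPM (log2 ratio 0.01), with 14 higher and 9 lower. They ranged from Ldhb, a lactate dehydrogenase subunit (683.6 and 193.2 CPM, -1.82), to Pgam1, a phosphoglycerate mutase (258.0 and 475.7 CPM, 0.88). The 17 regulators of mitochondrial genes and mitochondrial DNA had 10 lower and 7 higher, with a median of -0.04, which turned sign under some settings. Ppargc1b, a coactivator of mitochondrial biogenesis, measured 25.5 and 16.8 CPM (-0.60), Yy1, a transcription factor with sites in such genes, 24.4 and 41.4 CPM (0.76), and nuclear respiratory factor 1, Nrf1, 19.4 and 20.9 CPM (0.11, interval -0.10 to 0.32). The cytosolic ribosome summed to 223195 and 203266 CPM, with 73 of 77 genes lower (94.8%, against 48.1% of all genes) and a median of -0.16. Lower shares in the pool labelled KO were thus not particular to mitochondrial genes. The interferon response was higher in the pool labelled KO, with 28 of 29 genes and a median of 0.70. Past 1.2-fold 82.8% of its genes were higher, against 33.1% of all genes.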

How the data were processed

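Single-cell RNA-seq of sorted mouse HSCs was used. Per the study's methods the authors aligned reads to the mm9 mouse transcriptome, removed duplicates by UMI, kept genes averaging above 0.2 counts and normalized them. Neither the aligner nor the way of normalizing is given in the sources used here. The deposited values are log2 of the normalized count plus 1.

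UMI counts were recovered by undoing the log2 and dividing by the smallest step of each cell. All values came out whole within 0.01 (100%, largest distance 0.00302). Cells with at least 2000 genes and 20000 UMIs, counted over the genes of the table, were kept, and UMIs were summed by label. Precision is limited to counting error: ratios have exact Clopper-Pearson intervals and depths were 21475782 and 16180546 UMIs. No count model was run, since each label was 1 pool and the columns carry no library. Doublets were not called, since cells were picked by hand, and as the table names no barcode for a cell, shared barcodes were not counted. Thinning used 1 random seed, in Python 3.11.15 with numpy 2.4.6, pandas 2.3.3 and scipy 1.17.1, and the steps were tested on simulated data.

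Members and lists were chosen with earlier results of these data known. Named members were the 3 highest in CPM in complexes I, III, IV and V, complex II, Cycs, Cyc1, the paralogue groups, and the 5 highest and 5 lowest ratios among members averaging 0.5 UMI or more over the kept cells. The values of 1 named member are not reported here. In other lists the highest and lowest gene above that limit were named. Alternatives were other cell minima (none, or 3000 genes and 30000 UMIs), thinning, median-of-ratios scaling, means over cells of CPM or of the normalized values, leaving out the richest cell or cells with oocyte transcripts, and filters at a mean of 1 UMI and, chosen after seeing the data, 10 UMIs.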

Additional observations from a re-analysis of the deposited data

How the results depend on the processing

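The 5 complexes and the whole chain were lower in the pool labelled KO under each of the 8 alternatives run on them, but their sizes moved. In the mean over cells of the deposited normalized values the log2 ratios were -0.30 for the chain, -0.29, -0.34, -0.40, -0.24 and -0.35 for complexes I to V, and -0.32 for the median of the members, with 3 members higher and 58 lower past 1.2-fold. There the median of all genes was -0.14. Median-of-ratios scaling shifts every pooled log2 ratio by the same -0.028. Under it the chain was at -0.13 and complexes I, III, IV and V at -0.12, -0.28, -0.053 and -0.18. In the mean over cells of the CPM the chain was at -0.10 and complexes I, III, IV and V at -0.071, -0.22, -0.038 and -0.14. Without the cell richest in the group the chain was at -0.13 and complexes I, III, IV and V at -0.11, -0.23, -0.050 and -0.14. Without cells with oocyte transcripts the chain was at -0.10 and complexes I, II and III at -0.078, -0.24 and -0.23. In cells thinned to 20000 UMIs complex IV was at -0.045, and under the stricter cell minimum complex II was at -0.10. With members of at least 10 UMIs per cell, 2 were higher past 1.2-fold. Cox4i2 reversed to 0.33 without cells with oocyte transcripts, and Atp5s to -0.042 in the normalized values, where it stood at 0.10 relative to the median of all genes. The cause of these shifts was not tested, except that a smaller set of members gives smaller counts. Of 35 named members 24 kept 1 sign under all alternatives and 11 did not, and relative to the median of all genes in each setting these counts were 28 and 7.

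No paired analysis was possible because neither a library nor a replicate number is given for any cell, and no result comes from a test. Leaving out single libraries was not run for the same reason. The differences are small against the spread between cells, and without libraries the spread between animals is unknown.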
